A study of Mus musculus with 8 samples.

Results

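The genes described here encode 8 subunits of voltage-gated calcium channels, measured by RNA sequencing in cultured mouse myotubes. They were chosen by symbol as T-type and L-type subunit genes, and Cacna1g was known beforehand to fall more than nearly all other genes with the cytokine OSM in these libraries. Earlier results of these data were also known when the other genes and all lists below were chosen. Their p-values are therefore not independent of that choice. The set holds 2 T-type pore subunits (Cacna1g and Cacna1h), 2 L-type pore subunits (Cacna1s and Cacna1c) and 4 accessory subunits (Cacnb1, Cacnb3, Cacng1 and Cacna2d1). These are 8 of 53647 gene identifiers listed in the files, and all 8 were among the 15603 genes with enough counts to be tested. Wild-type primary myoblasts from limb muscle of pups 2 to 3 days old were differentiated in horse serum into myotubes, the multinucleated fibres that form when myoblasts fuse. They were left as controls or given OSM (oncostatin M), LIF (leukaemia inhibitory factor) or IL6 (interleukin 6) for 48 h, each at 250 ng/ml, and were harvested 72 h after differentiation began. Each of the 4 groups had 2 libraries, 8 in all, and nothing in the labels says whether the 2 came from separate animals or dishes, so the p-values below measure only the spread between these libraries, which may be technical.

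Voltage-gated calcium channels open when the membrane depolarises. The pore is a single large alpha1 protein. L-type pores also bind a beta subunit on the inner face, an alpha2-delta subunit on the outer face and, in skeletal muscle, a gamma subunit. In adult skeletal muscle the L-type pore Cav1.1, encoded by Cacna1s, acts mainly as the voltage sensor that triggers calcium release through the ryanodine receptor Ryr1. T-type channels open at weaker depolarisations, need no accessory subunit to conduct, and are known from developing muscle, where they have been linked to myoblast fusion, and are largely lost from mature fibres. OSM, LIF and IL6 share the receptor chain gp130 and signal through STAT3 among other routes.

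Depth was even, at 29482077 to 30025471 counts assigned to genes per library. All 9 myotube markers were detected in every library, with summed levels, in counts per 1000000 counts of the library (CPM), of 24918 and 25966 in control, 21802 and 24418 with IL6, 22695 and 24213 with LIF, and 21785 and 21970 with OSM. Of the 4 macrophage markers, Adgre1, Csf1r and Ptprc had at most 7 counts in any library, while Cd68 was higher and rose with OSM (below). These 4 summed to 1.96 and 2.25 CPM in control and 4.55 and 4.06 with OSM. The endothelium markers (Pecam1, Cdh5, Kdr) had at most 35 counts in any library. Fibroblast markers summed to 1513 to 1732 CPM in control and IL6 and 1992 to 2171 with LIF and OSM, with Lum at 0 counts in every library. In these bulk cultures, fewer cells of a type and less RNA per cell cannot be told apart.

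With OSM, transcripts of the pore gene Cacna1g fell while those of the other T-type pore gene, Cacna1h, rose. Cacna1g was 13.6-fold lower than in control. The L-type pore Cacna1s and its muscle beta partner Cacnb1 stood within a few percent of control. With LIF, Cacna1h rose as well, and Cacna1g was 2.81-fold lower than in control. With IL6 none of the 8 genes was called. A gene was called when its adjusted p (edgeR's quasi-likelihood test, Benjamini-Hochberg over all genes tested) was under 0.05, and by that rule 1 of 8 rose and 1 of 8 fell against control both with OSM and with LIF. Over all genes tested, 21.2% were called with OSM and 7.7% with LIF. The median log2 change over the 8 genes was -0.04 with OSM and -0.09 with LIF, beside medians over all genes tested of -0.0027 and -0.0078. Because Cacna1g was chosen with its fall in view, nothing is read from its place in these counts, and its values are given with a fold and a standard error and without a p.

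**Figure D1:**
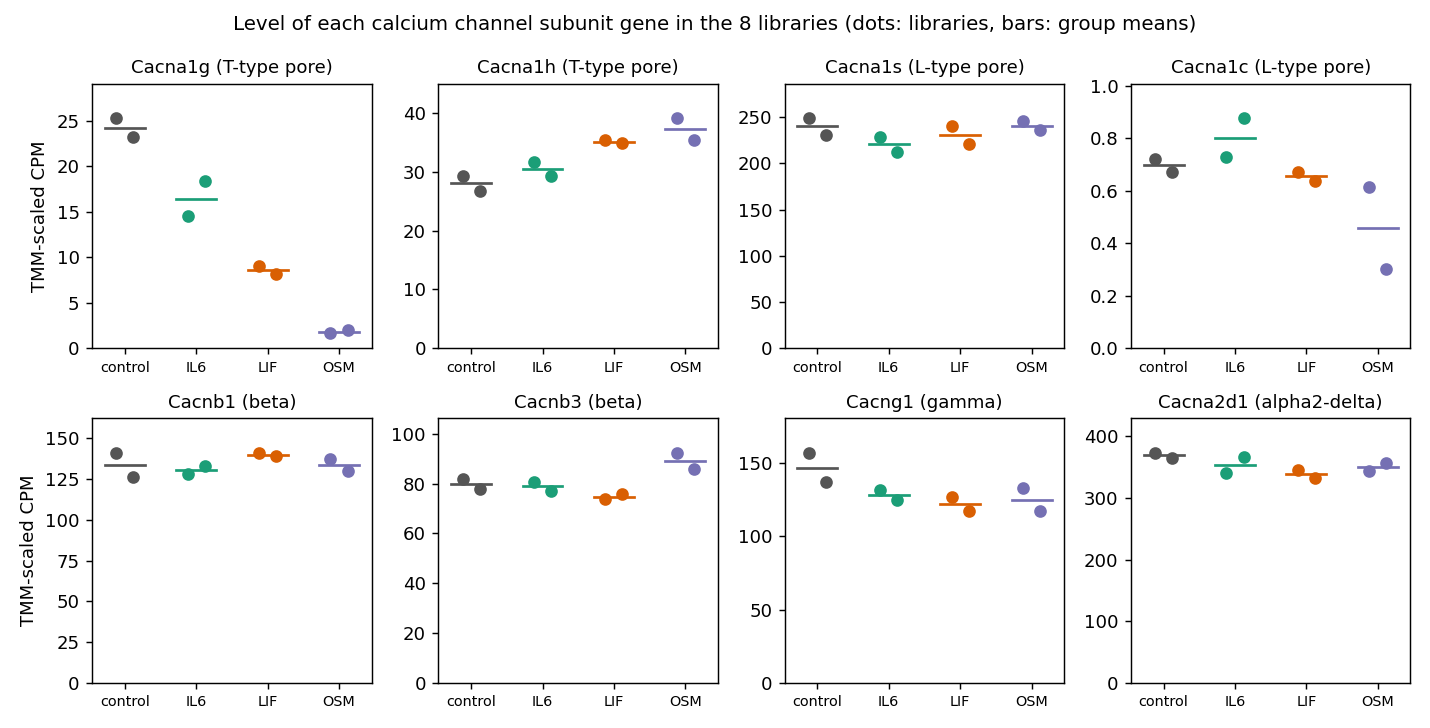
TMM-scaled CPM of each of the 8 genes (vertical axis, from 0, a separate scale in each panel) in the control, IL6, LIF and OSM groups; dots are libraries and bars are means of 2. Cacna1g steps down from 25.3 and 23.2 in control to 1.61 and 1.95 with OSM, Cacna1h steps up, and the other panels are nearly flat apart from the low counts of Cacna1c.

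Cacna1g (ENSMUSG00000020866) encodes the T-type pore Cav3.1. Its level, in CPM with library sizes scaled by edgeR's TMM method (used throughout), was 25.3 and 23.2 in the control libraries, 14.5 and 18.4 with IL6, 9.05 and 8.17 with LIF, and 1.61 and 1.95 with OSM. The groups did not overlap: both control libraries were highest, then IL6, then LIF, and both OSM libraries were lowest. Behind the OSM values lay 47 and 58 counts, against 736 and 690 in control.

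The log2 change of Cacna1g against control was -3.76 with OSM (SE 0.169) and -1.49 with LIF (SE 0.126). With IL6 it was -0.56 (SE 0.115), a 1.47-fold lower mean. Cacna1g was at 16.5 ± 2.73 CPM (SD, n = 2) with IL6 and at 24.2 ± 1.47 (SD, n = 2) in control. Set directly against LIF, OSM was 4.83-fold lower (log2 -2.27, SE 0.197). OSM was 9.22-fold lower than IL6, and LIF was 1.91-fold lower than IL6.

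Cacna1h (ENSMUSG00000024112) encodes Cav3.2, the other T-type pore expressed at a similar level per length. Its level was 29.4 and 26.8 CPM in control, 31.7 and 29.4 with IL6, 35.4 and 35 with LIF, and 39.2 and 35.5 with OSM. All 4 libraries with OSM or LIF lay above all 4 with IL6 or without cytokine, and the IL6 and control ranges met. Cacna1h rose with OSM by 0.41 on the log2 scale (SE 0.0834, 95% interval 0.229 to 0.589, adjusted p = 0.00342, edgeR) and with LIF by 0.33 (SE 0.0837, adjusted p = 0.0311, edgeR). The IL6 value was 0.12 (adjusted p = 0.937, edgeR). OSM and LIF did not differ past the threshold in Cacna1h (log2 0.08, 95% interval -0.0929 to 0.26, adjusted p = 0.643, edgeR), and OSM was above IL6 (log2 0.29, adjusted p = 0.0301, edgeR). The call against IL6 was lost in 5 of 13 alternative fits: with only the 2 groups fitted (0.29, adjusted p = 0.0574), and without IL6 replicate 2 (0.24, adjusted p = 0.114), LIF replicate 1 (0.29, adjusted p = 0.0593), LIF replicate 2 (0.29, adjusted p = 0.0592) or OSM replicate 1 (0.22, adjusted p = 0.256), in edgeR. The call with OSM was lost without OSM replicate 1 (log2 0.34, adjusted p = 0.0593), and that with LIF was lost without control replicate 2 (0.26, adjusted p = 0.159), without LIF replicate 1 (0.32, adjusted p = 0.198) or without LIF replicate 2 (0.34, adjusted p = 0.187), all in edgeR.

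**Figure D2:**
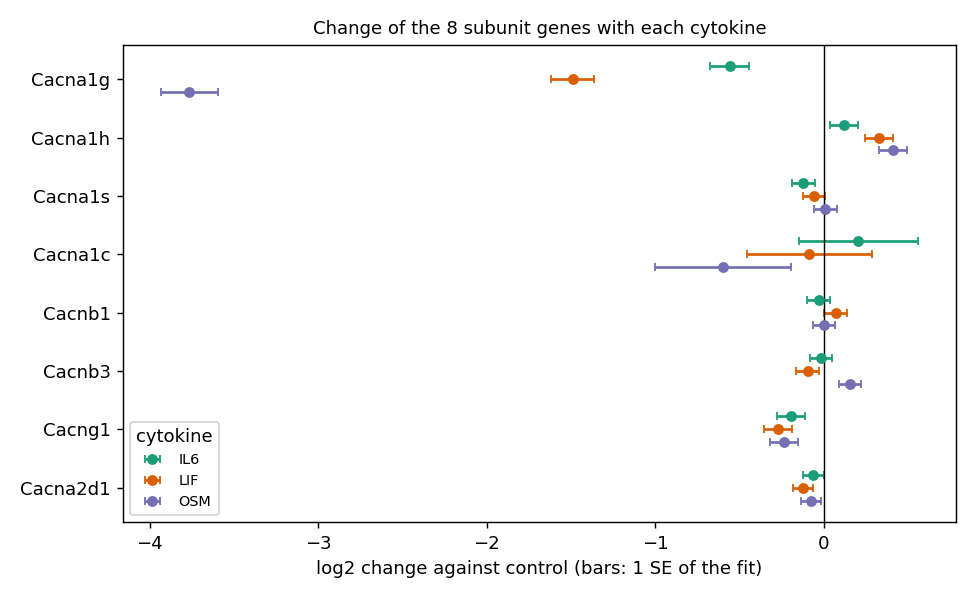
Log2 change of each gene against control (horizontal axis) with IL6, LIF and OSM; points are estimates of the fit over all 8 libraries and bars are 1 standard error. Cacna1g lies far to the left with OSM (-3.76) and LIF (-1.49), Cacna1h lies to the right of 0, and Cacna1c has the widest bars.

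The make-up of T-type pore transcripts shifted accordingly. Per kb of exon, Cacna1g made up 41.4% and 41.8% of the summed Cacna1g, Cacna1h and Cacna1i level in control, 28.1% and 34.8% with IL6, 18.7% and 17.3% with LIF, and 3.38% and 4.5% with OSM. Cacna1h went from 50.1% and 50.2% in control to 85.5% and 85.3% with OSM. The summed level itself was 6.01 and 5.47 CPM per kb in control and 4.69 and 4.26 with OSM, so the rise of Cacna1h was smaller per kb than the fall of Cacna1g. Cacna1i, which encodes Cav3.3, fell with LIF: it was at 5.01 and 4.33 CPM in control, 2.52 and 2.65 with LIF, and 5.13 and 4.30 with OSM. Its log2 change with LIF was -0.85 (SE 0.181, adjusted p = 0.0108, edgeR), and OSM was above LIF by 0.86 (adjusted p = 0.00878, edgeR). The Cacna1i call with LIF was lost without control replicate 1 (-0.74, adjusted p = 0.0724), LIF replicate 1 (-0.82, adjusted p = 0.107) or LIF replicate 2 (-0.89, adjusted p = 0.095) in edgeR. Its OSM against LIF call was lost without LIF replicate 1 (0.83, adjusted p = 0.113), LIF replicate 2 (0.90, adjusted p = 0.066) or OSM replicate 1 (0.74, adjusted p = 0.133), also in edgeR.

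**Figure D3:**
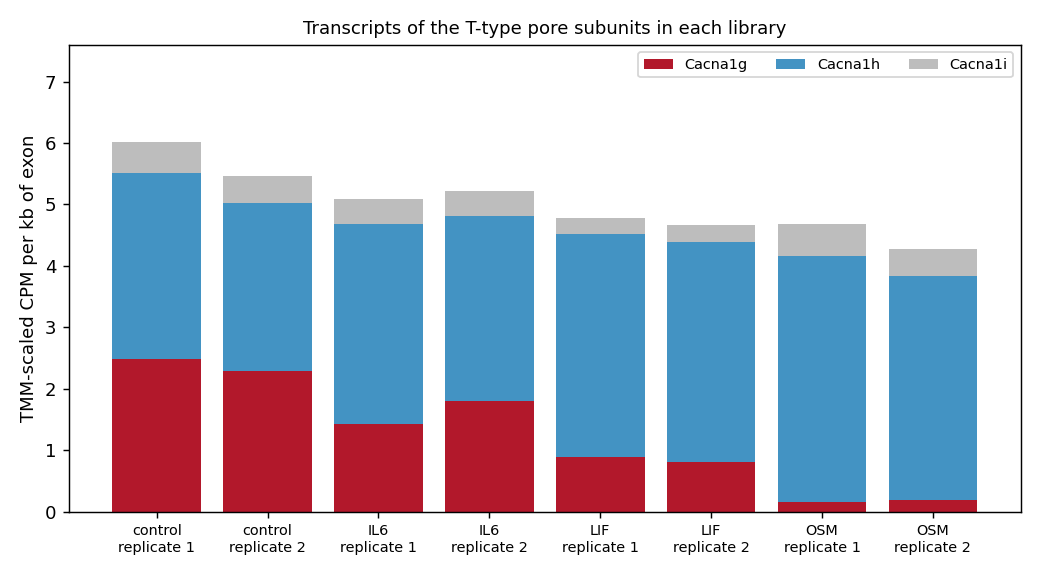
Stacked TMM-scaled CPM per kb of exon (vertical axis, from 0) of the 3 T-type pore genes in each library. The Cacna1g segment shrinks from 41.4% and 41.8% of the stack in control to 3.38% and 4.5% with OSM, while the whole stack goes from 6.01 and 5.47 to 4.69 and 4.26.

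Cacna1s (ENSMUSG00000026407), the L-type pore and voltage sensor of the triad, was at 249 and 231 CPM in control, 229 and 212 with IL6, 240 and 221 with LIF, and 246 and 236 with OSM. The OSM and LIF libraries overlapped the controls. Its log2 change with OSM was 0.01 (95% interval -0.139 to 0.154, adjusted p = 0.954, edgeR) and with LIF -0.06 (95% interval -0.206 to 0.0876, adjusted p = 0.704, edgeR). In the reference annotation, 20% of its exon bases lie over the opposite-strand gene Gm37759, and the strand setting of the counting is not given in the sources used here. Gm37759 had 6 to 15 counts per library, beside 6275 to 7257 for Cacna1s. Without the strand setting, these counts do not show whether reads from the overlap were counted. Cacna1s made up nearly all of the L-type pore level per kb in every library.

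Cacna1c (ENSMUSG00000051331) encodes Cav1.2, the L-type pore of heart and smooth muscle, and was close to the limit of detection. It had 21 and 20 counts in control (0.721 and 0.672 CPM), 22 and 26 with IL6, 20 and 19 with LIF, and 18 and 9 with OSM (0.616 and 0.302 CPM). Both OSM libraries were below the others, but the second was at under 10 counts and set most of the gap. The log2 change with OSM was -0.60 with a wide 95% interval of -1.47 to 0.273 (adjusted p = 0.333, edgeR), so a change of moderate size was not detectable at this depth. Cacna1c was 0.0395% to 0.128% of the L-type pore level per kb. Cacna1d and Cacna1f, the other L-type pores, had 0 counts in all 8 libraries, which allows up to 3 counts in each.

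Promoter sequences of 300 bases, from 250 before to 50 after a start site, were found in RefSeq (GRCm38.p6) for 5 of the 8 genes: Cacna1s, Cacna1c, Cacnb1, Cacnb3 and Cacna2d1. Cacna1g, Cacna1h and Cacng1 had no entry. Because these cytokines act through STAT3 and muscle genes through E-box binding factors, both strands were searched for the STAT motif TTCNNNGAA and for CAGCTG, an E-box and thus also a case of CANNTG. A window with a match is shown for the abundant and for the scarce L-type pore, with the matched bases in capitals. Both were picked for holding a match, so no contrast between these genes is read from the windows. That of Cacna1s, chr1:136052561-136052860 on the + strand, has CAGCTG at -123 from the start. That of Cacna1c, chr6:118757925-118758224 on the - strand and 1 of its 3 start sites, has the STAT motif at -115.
Cacna1s: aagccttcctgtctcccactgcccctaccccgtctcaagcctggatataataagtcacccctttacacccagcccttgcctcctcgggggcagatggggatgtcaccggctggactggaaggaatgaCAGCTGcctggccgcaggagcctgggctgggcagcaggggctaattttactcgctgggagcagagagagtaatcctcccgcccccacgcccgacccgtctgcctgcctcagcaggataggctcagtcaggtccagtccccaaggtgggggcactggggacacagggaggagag
Cacna1c: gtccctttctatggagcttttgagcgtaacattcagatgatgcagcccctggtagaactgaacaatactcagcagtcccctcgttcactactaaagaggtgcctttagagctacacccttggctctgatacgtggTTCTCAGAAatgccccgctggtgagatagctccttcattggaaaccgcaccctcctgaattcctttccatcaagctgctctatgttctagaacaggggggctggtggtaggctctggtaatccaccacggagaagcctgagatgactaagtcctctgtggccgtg
The STAT motif was in no other window of these 5 genes, and over 32851 promoter windows of this length 8.3% held it. CAGCTG was in 16.3% of those windows, and among these genes also in another Cacna1c window, at 27. The GC box GGGCGG, held by 35.7% of all windows, occurred 7 times in the Cacna2d1 window, 6 times in 1 of the Cacna1c windows, 5 times in 1 of the Cacnb1 windows, 4 times in 1 and once in the other of the Cacnb3 windows, and once in the Cacna1s window. TATAAA, in 13.6% of all windows, was in none of the windows of the 5 genes, and CANNTG was in 72.3% of all windows. A match is only these letters in this window, not a site shown to be bound.

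Cacnb1 (ENSMUSG00000020882) encodes the beta subunit that places Cav1.1 at the triad. It was at 141 and 126 CPM in control, 128 and 133 with IL6, 141 and 139 with LIF, and 137 and 130 with OSM. The control pair spanned the OSM pair. The log2 change with OSM was within 0.01 of 0 (95% interval -0.145 to 0.145, adjusted p = 0.998, edgeR) and that with LIF was 0.07 (adjusted p = 0.63, edgeR).

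Cacnb3 (ENSMUSG00000003352), a beta subunit better known from neurons and smooth muscle, was at 82.0 and 77.9 CPM in control, 80.8 and 77.2 with IL6, 73.6 and 75.9 with LIF, and 92.3 and 85.7 with OSM. The OSM libraries were the highest pair and the LIF libraries the lowest, with control and IL6 between them. Against control neither passed the test: the log2 change was 0.15 with OSM (95% interval 0.0133 to 0.295, adjusted p = 0.117, edgeR) and -0.10 with LIF (adjusted p = 0.46, edgeR). Set against each other, Cacnb3 was higher in OSM than in LIF by 0.25 (SE 0.0654, 95% interval 0.11 to 0.393, adjusted p = 0.0308, edgeR). That call was lost when any 1 of the LIF or OSM libraries was left out: the log2 value was 0.23 without LIF replicate 1 (adjusted p = 0.302, edgeR), 0.28 without LIF replicate 2 (adjusted p = 0.147, edgeR), 0.20 without OSM replicate 1 (adjusted p = 0.314, edgeR) and 0.31 without OSM replicate 2 (adjusted p = 0.0652, edgeR). In OSM against LIF, 1 of 8 genes was called higher (Cacnb3) and 1 lower (Cacna1g), beside 8.02% of all genes tested. Nothing is read from the place of Cacna1g in that count, as it was chosen with its fall in view.

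Of the summed beta level per kb, Cacnb1 made up 55.9% to 61.7% and Cacnb3 36.4% to 42.5% over the 8 libraries. Cacnb3's share was 42.5% and 42% with OSM and 36.4% and 37.5% with LIF, with control at 39.2% and 40.7%. Cacnb2, the main beta subunit of heart, was a small part of the total and rose with both OSM and LIF. It was at 3.40 and 3.43 CPM in control, 4.83 and 4.49 with IL6, 6.83 and 5.63 with LIF, and 8.65 and 7.78 with OSM, with no overlap between any groups. Its log2 change was 1.27 with OSM (SE 0.155, adjusted p = 6.31e-05, edgeR) and 0.87 with LIF (SE 0.163, adjusted p = 0.00559, edgeR). The LIF call was lost without LIF replicate 1 (0.72, adjusted p = 0.0855, edgeR), and 7.32% of the exon bases of Cacnb2 lie over opposite-strand genes.

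Cacng1 (ENSMUSG00000020722) encodes the gamma subunit found with Cav1.1 in skeletal muscle, where it limits the calcium current. It was at 157 and 137 CPM in control, 132 and 125 with IL6, 127 and 117 with LIF, and 133 and 117 with OSM. All 6 cytokine libraries lay below both controls. None of the 3 differences passed the test: the log2 change was -0.24 with OSM (95% interval -0.412 to -0.0598, adjusted p = 0.0567, edgeR), -0.27 with LIF (95% interval -0.449 to -0.0964, adjusted p = 0.0625, edgeR) and -0.20 with IL6 (adjusted p = 0.936, edgeR). The OSM and LIF values were near the threshold and passed it in 4 and 5 of 13 alternative fits. These 3 comparisons share the same pair of control libraries.

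Cacna2d1 (ENSMUSG00000040118) encodes the alpha2-delta subunit of the muscle channel, which also binds gabapentin. It was at 373 and 365 CPM in control, 341 and 366 with IL6, 346 and 332 with LIF, and 343 and 356 with OSM. Both OSM and both LIF libraries were under the controls by a few percent, and no difference passed: the log2 change was -0.08 with OSM (95% interval -0.208 to 0.0499, adjusted p = 0.392, edgeR) and -0.12 with LIF (95% interval -0.252 to 0.0058, adjusted p = 0.267, edgeR). Cacna2d1 made up nearly the whole alpha2-delta level per kb.

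Set in order by CPM per kb of exon in control, Cacng1 was highest at 118 ± 11.5 (SD, n = 2 here and below). Cacna1s followed at 36.7 ± 1.91. Cacna2d1 at 29.7 ± 0.46 and Cacnb1 at 29.4 ± 2.43 did not differ beyond their spread. Cacnb3 stood at 19.9 ± 0.729. The T-type pores were an order lower, with Cacna1h at 2.88 ± 0.191 and Cacna1g at 2.39 ± 0.145, and Cacna1c was at 0.0328 ± 0.00163. When lengths were taken from the longest transcript instead, the order among Cacna2d1 (49.6), Cacnb1 (39.3) and Cacna1s (38.4) changed, so these 3 have no settled order. In OSM the top of the per-kb order was as in control, while Cacna1g dropped to 0.175 ± 0.0236 against 3.82 ± 0.266 for Cacna1h.

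In the direct comparison of OSM with IL6, 1 of 8 genes was higher (Cacna1h, a call lost in 5 of 13 alternative fits) and 1 lower (Cacna1g), beside 15.6% of all genes tested. In LIF against IL6, none was higher and 1 was lower (Cacna1g), beside 2.76%, and that count went to 0 without LIF replicate 2. Because Cacna1g was chosen with its fall in view, nothing is read from its place in these counts either. In IL6 against control, edgeR called 0 of the 8 genes and 0% of all genes tested. At an unadjusted p under 0.05 there were 2 of the 8 and 808 genes in all in that comparison, and DESeq2's Wald test called none of the 8 and 19 genes in all.

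The other voltage-gated calcium channel genes were mostly silent or weak in these cultures. Of 18 such genes, 9 were tested. Cacna1d, Cacna1f, Cacng2, Cacng3 and Cacng5 had 0 counts in every library, and the brain R-type pore Cacna1e had 1 count in 1 library. Cacng8, Cacna2d2 and Cacna2d3, with 0 to 13 counts per library, were also too low to test. Cacna1a and Cacna1b, the P/Q-type and N-type pores of neurons, had 7 to 27 counts per library and were not called against control. With OSM, 1 of the 9 rose (Cacnb2, above) and 2 fell, and with LIF 1 rose (Cacnb2) and 1 fell (Cacna1i), beside 21.2% and 7.7% of all genes tested. The median log2 change of the 9 was -0.29 with OSM and -0.20 with LIF. With IL6, edgeR called 0 of the 9, with 1 at an unadjusted p under 0.05 and 0 by DESeq2.

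Cacng4, a gamma-family gene better known as a partner of AMPA receptors, was at 5.87 and 6.28 CPM in control and 3.08 and 3.52 with OSM. Both OSM libraries were below all others, and the log2 change with OSM was -0.88 (SE 0.154, adjusted p = 0.00117, edgeR). Cacna2d4 was at 2.02 and 1.88 CPM in control and 1.06 and 0.973 with OSM (log2 -0.94, SE 0.294, adjusted p = 0.0373, edgeR). DESeq2's Wald test did not call Cacna2d4 (adjusted p = 0.107), and leaving out any 1 control or OSM library ended the edgeR call, with log2 values of -0.87 to -0.995 and adjusted p of 0.0817 to 0.188. Cacng6, a muscle gamma gene related to Cacng1, was the most abundant of the 9 at 42.2 to 49.6 CPM and was not called.

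**Figure D4:**
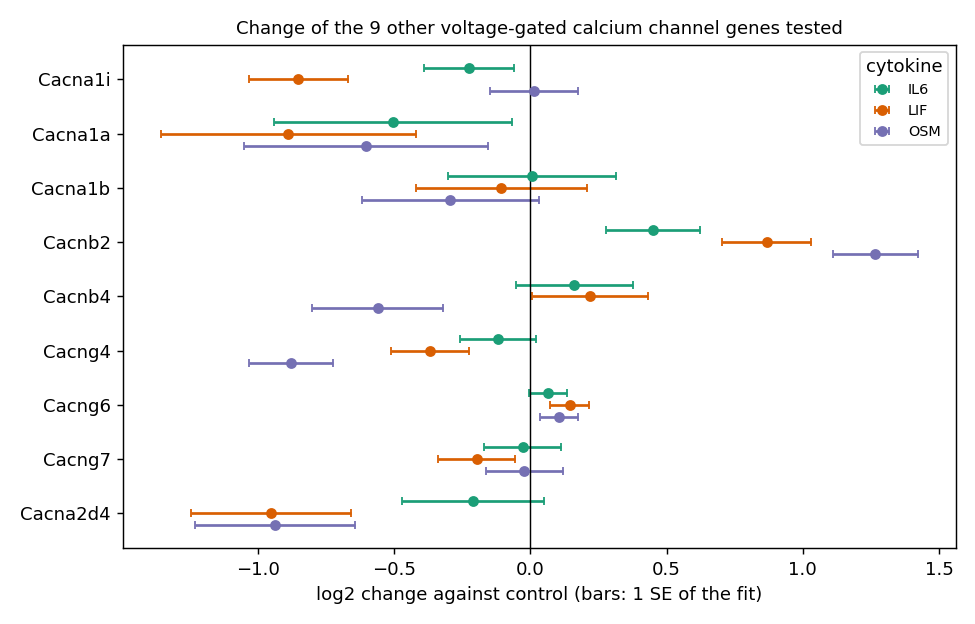
Log2 change against control (horizontal axis) of the 9 other calcium channel genes tested, with IL6, LIF and OSM; points are estimates of the fit over all 8 libraries and bars are 1 standard error. Cacnb2 lies to the right of 0 with all 3 cytokines (1.27 with OSM, 0.87 with LIF), Cacna2d4 (-0.94) and Cacng4 (-0.88) lie to the left with OSM, and Cacna1i lies left with LIF (-0.85) and near 0 with OSM.

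Among 16 partners and inhibitors of the L-type channel, 15 were tested, and 3 rose and none fell with OSM, beside 21.2% of all genes tested called in that comparison. Gem, a small GTPase that binds beta subunits and inhibits high-voltage-activated calcium channels, was at 21.2 and 20.5 CPM in control, 21.3 and 21.4 with IL6, 27.0 and 28.4 with LIF, and 33.1 and 32.7 with OSM. Both LIF and both OSM libraries were above all others, and Gem rose by 0.66 with OSM (SE 0.078, adjusted p = 4.77e-05, edgeR) and by 0.41 with LIF (adjusted p = 0.00629, edgeR). The LIF call was lost without LIF replicate 2 (0.38, adjusted p = 0.105, edgeR). The adaptor gene Stac rose by 0.94 with OSM (41 and 40 counts in control, 76 and 80 with OSM, adjusted p = 0.012, edgeR). Stac lies over the opposite-strand Gm43236 for 11.3% of its exon bases, and its call was lost without control replicate 2 (0.92, adjusted p = 0.0539), OSM replicate 1 (0.97, adjusted p = 0.0649) or OSM replicate 2 (0.92, adjusted p = 0.0744) in edgeR. Ahnak, a large scaffold protein that binds beta subunits, rose by 0.23 (adjusted p = 0.0323, edgeR), a call lost in 5 of 13 alternative fits. The release channel Ryr1 had a log2 change of 0.07 with OSM (adjusted p = 0.533, edgeR). Stac3, which carries Cav1.1 to the triad, was at -0.04 (adjusted p = 0.767, edgeR). Some other partners stood lower without being called. Mean CPM was 466 in control and 417 with OSM for Jph2, and 159 and 128 for Cav3. Of the 15 tested, 8 had a log2 change below 0 with OSM and 7 above. Rrad, a GTPase related to Gem, was not called against control, and its OSM level stood below its LIF level by a log2 value of -0.81 (adjusted p = 0.0389, edgeR), a call lost in 8 of 13 alternative fits.

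Among other voltage-gated channel genes of muscle, the potassium channel Kcna7 was at 6.55 and 6.38 CPM in control, 10.1 and 8.47 with LIF, and 6.33 and 6.81 with OSM. Both LIF libraries were above the rest, and Kcna7 rose with LIF by 0.52 (adjusted p = 0.0317, edgeR; lost in 7 of 13 alternative fits). Scn4a, the main sodium channel of muscle, had a log2 value of -0.31 in OSM against LIF (adjusted p = 0.0455, edgeR; lost in 6 of 13).

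All 18 genes of calmodulin, calcineurin, NFAT and CaM kinase signalling were tested, and 3 rose and 3 fell with OSM, while 2 rose and none fell with LIF. Of all genes tested, 21.2% were called with OSM and 7.7% with LIF. Rcan2, a regulator of calcineurin, was at 0.892 and 1.11 CPM in control and 2.84 and 2.42 with OSM. Its rise of 1.39 with OSM (SE 0.279, adjusted p = 0.00311, edgeR) kept its call in all 13 alternative fits. Rcan1, a related calcineurin regulator, rose by 0.36 (adjusted p = 0.0141, edgeR), a call lost without control replicate 1 (0.31, adjusted p = 0.0826, edgeR) or OSM replicate 1 (0.27, adjusted p = 0.175, edgeR). Camk2g rose with OSM by 0.30 (adjusted p = 0.00439, edgeR) and with LIF by 0.32 (adjusted p = 0.00667, edgeR). The OSM call of Camk2g was lost without OSM replicate 1 (0.27, adjusted p = 0.0647, edgeR), and the LIF call without LIF replicate 1 (0.33, adjusted p = 0.0722, edgeR) or LIF replicate 2 (0.32, adjusted p = 0.0934, edgeR). Camk4, a CaM kinase of nerve and immune cells, had 13 and 11 counts in control and 3 and 1 with OSM. It was called lower with OSM (adjusted p = 0.0145, edgeR), a call lost in 3 of 12 alternative fits. Calm3 was at -0.20 with OSM (adjusted p = 0.0342, edgeR; lost in 6 of 13). Calm2 (-0.18, adjusted p = 0.0334, edgeR; lost in 7 of 13) shares 12.7% of its 50-base stretches with other transcripts, so its reads are uncertain.

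The 5 genes whose level followed Cacna1g most closely over the 8 libraries, among 330 protein-coding genes with at least 100 counts on average and a spread of at least 0.5 on the log2 scale, were Thsd4 (Pearson r = 0.995), Nek2, Cdca3, Sgo1 and Mcm5 (0.994 each). The 8 points are 4 groups of 2, so such r values mostly compare group means, and they are given as a measure of likeness only. Nek2, Cdca3, Sgo1 and Mcm5 are genes of the cell division cycle. How many of the 330 candidates are such genes was not counted, so no particular link to Cacna1g is read from this. The log2 change with OSM was -1.96 for Nek2, -1.79 for Cdca3, -1.87 for Sgo1, -1.88 for Mcm5 and -1.71 for Thsd4. Cacna1g was chosen with its large fall in view, so nothing is read from its fall being larger than theirs.

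A list of 5 dividing-cell markers moved in the same direction as Cacna1g. Their summed level was 623 and 738 CPM in control, 580 and 631 with IL6, 486 and 450 with LIF, and 164 and 207 with OSM, and none was at 0 in any library. All 5 fell with OSM (median log2 -1.85, Mki67 -2.02) and all 5 with LIF (median -0.57). DESeq2's Wald test called 5 with OSM and 4 with LIF. With IL6 edgeR called 0 of 5 (median -0.18), with 0 at an unadjusted p under 0.05 and 0 by DESeq2. The part of dividing cells in the Cacna1g result was not tested. Beside these counts and those of the other markers below, 21.2% of all genes tested were called with OSM and 7.7% with LIF. Of the 3 myoblast markers, 2 rose with OSM (Pax7 by 0.39 and Myf5 by 0.82), and DESeq2's Wald test called 1. Of the 9 myotube markers, 3 fell with OSM (Myog by 0.53) and 1 rose (Des by 0.30). The log2 change was below 0 for 8 of the 9 with OSM (median -0.215) and for 8 with LIF (median -0.118). With LIF, 2 were called lower and 1 higher. The Wald test called 6 of the myotube markers with OSM and 3 with LIF. Of the 5 fibroblast markers tested, 2 rose and 1 fell with OSM, and the Wald test called 4. Cd68, the 1 macrophage marker tested, rose by 1.03. Smooth muscle and pericyte markers summed to 512 to 657 CPM in control and IL6 and 603 to 735 with LIF and OSM. With OSM, 1 of 5 tested was higher and 2 were lower, and the Wald test called 2 of the 5. Neuron and Schwann cell markers summed to 50.1 to 68.8 CPM over all libraries, and Snap25 and Sox10 had at most 2 counts. Of the 3 of these markers tested, edgeR called 1 lower with OSM and with LIF: Syt1, a synaptic vesicle protein, had 13 and 23 counts in control, 9 and 13 with IL6, 5 and 4 with LIF, and 1 and 2 with OSM (adjusted p = 0.00188 with OSM and 0.0313 with LIF, edgeR). DESeq2's Wald test called 1 of these markers with OSM and 0 with LIF. The part of these cells in the results above was not tested either.

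**Figure D5:**
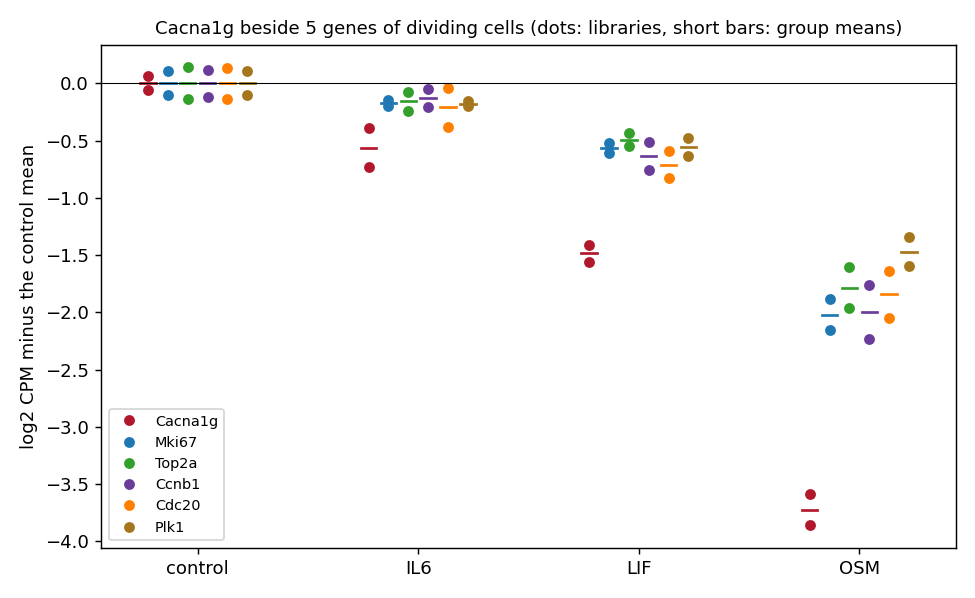
Log2 CPM minus the control mean (vertical axis) for Cacna1g and 5 dividing-cell markers in the 4 groups; dots are libraries and short bars are group means. The markers fall with LIF and more with OSM (Mki67 by 2.02). Cacna1g was at -0.56 with IL6, -1.49 with LIF and -3.76 with OSM in the fit. Cacna1g was chosen with its fall in view, so nothing is read from its lying below the markers.

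Among the 8 genes themselves, the closest opposed pair over the 8 libraries was Cacna1g and Cacna1h (Pearson r = -0.873) and the closest like pair was Cacna1g and Cacna1c (0.709), the latter resting on the low counts of Cacna1c. These r values are descriptions of 4 groups of 2 libraries.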

How the data were processed

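RNA from 8 libraries of primary myotubes was prepared with the TruSeq Stranded mRNA kit, per the labels' protocols. The authors deposited raw read counts per Ensembl gene, not normalized, 1 file per library. The submitters' processing notes name FastQC 0.11.9, MultiQC 1.12, Trim Galore 0.6.5, STAR 2.7.3a, HTSeq 0.11.1, DESeq2 1.34.0 and the builds GRCm39 and mm39, with no role or order; the strand setting and annotation release are not given in the sources used here. Summary lines that name no gene (11.7% to 12.7% of each library) were left out. Symbols, exon lengths and overlaps came from GENCODE M21, which held 52094 of the 53647 identifiers; all 120 listed symbols matched.

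Counts were tested with edgeR 4.0.16 in R 4.3.3 over all 8 libraries: filterByExpr (minimum count 10), TMM, robust quasi-likelihood fit, 6 contrasts, Benjamini-Hochberg adjustment over the 15603 genes tested, with a call at adjusted p under 0.05. The fit had 4 residual degrees of freedom and a biological coefficient of variation of 6.42%, and was tested on simulated data. The 4 groups shared 1 estimate of the spread, so a p-value does not reflect the spread of its own groups alone. Libraries of a group differed unequally: the chi-square per gene between them was 2.89 with LIF, 4.98 with OSM, 9.33 in control and 11.4 with IL6. Alternatives were no filter, DESeq2 1.42.0 size factors, its Wald test, a replicate block, fits of 2 groups and leaving out each library. CPM uses TMM-scaled library sizes, and log2 CPM a prior count of 2. The 8 genes and all lists were chosen with earlier results of these data known. Named besides the 8 were list genes called in at least 1 contrast (at most the 4 largest per list and contrast), defining partners, and the 5 genes most like Cacna1g. Where a count of 0 was seen, up to 3 counts are allowed; this covers counting error only. Some results of the list of other muscle channels are not reported here.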

Additional observations from a re-analysis of the deposited data

How the results depend on the processing

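The counts of calls over all genes, the 8 genes and the other calcium channel genes were recomputed under 13 alternatives, as were the changes of the named genes where they could be tested (12 for some genes of low counts); levels per kb were recomputed with another length only. Of 234 recomputed counts of calls, 186 stayed within 1.5 times the count reported. Of 1184 recomputed changes and levels of single genes, 987 kept their direction and side of the threshold or, with no test, moved by at most 1 SE (changes) or 1 SD (levels). A further 133 lost a call, 10 gained one, 24 changed sign and 30 with no test moved by more. For IL6 against control, DESeq2's Wald test called 19 genes and the replicate block 9, in place of 0. Fitting only the 2 groups gave 2904 genes for OSM against LIF and 4 other calcium channel genes in place of 1, and 1 of the 8 genes in place of 2 for OSM against IL6; the cause was not tested. The replicate block gave 2 other calcium channel genes for OSM against LIF and 832 genes in place of 431 for LIF against IL6. The replicate numbers share only a number: same-numbered libraries deviated together with correlations of 0.00708 to 0.181. The block also called Cacng1 with OSM (adjusted p = 0.00677, edgeR) and LIF (0.00556).

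Leaving out 1 library leaves a group with a single library, assumed to vary like the others. Genes called then ranged from 1613 to 4056 for OSM against control, 314 to 1659 for LIF against control, 0 to 182 for IL6 against control, 440 to 1746 for OSM against LIF, 1111 to 2684 for OSM against IL6, and 79 to 724 for LIF against IL6. Of the 8 genes, 1 to 3 were called with OSM and with LIF, 0 to 1 with IL6, 1 to 2 in OSM against LIF and in OSM against IL6, and 0 to 1 in LIF against IL6. Other calcium channel genes called ranged from 0 to 4 with LIF, 0 to 2 in OSM against LIF and 1 to 3 in OSM against IL6. Cacna1g kept its direction in each of the 13 fits, with log2 values of -3.9 to -3.63 with OSM, -1.57 to -1.42 with LIF and -0.738 to -0.397 with IL6, and its log2 ratio of mean CPM plus 1 was -3.18 with OSM. Cacna1h was above 0 against control in all of them.

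Sign changes were of values near 0. Cacnb1 with OSM was 0.0061 without the filter, 0.0019 with DESeq2 size factors, 0.0019 in the Wald test and 0.00045 with the replicate block, and -0.0734 to 0.0862 with 1 library left out. With 1 library left out, Cacna1s ranged from -0.0362 to 0.0616 with OSM and -0.122 to 0.0022 with LIF. Cacnb1 ranged from -0.0066 to 0.157 with LIF, -0.112 to 0.0547 with IL6 and -0.0016 to 0.0773 in OSM against IL6. Cacnb3 with IL6 ranged from -0.0534 to 0.0192. Cacng1 ranged from -0.0525 to 0.129 in OSM against LIF and -0.126 to 0.0557 in OSM against IL6, and Cacna2d1 from -0.0589 to 0.0346 in OSM against IL6. Depth limited Cacna1c most, at 9 to 26 counts per library.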
